A study of Homo sapiens with 4 samples.

Results

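The input RNA of YTHDF3 knockout cells was compared with the input RNA of SiHa cells, gene by gene. SiHa is an established human cervical squamous carcinoma line. The knockout is a derivative of SiHa labelled as lacking YTHDF3, a cytoplasmic reader of N6-methyladenosine. Each line gave 1 library of input RNA and 1 library of RNA precipitated with an antibody to YTHDF3 (IP), so the study has 4 libraries and 1 library per group. The labels do not say whether the knockout is a single clone or a pool of cells. The labels' protocols name a strand-preserving mRNA library kit for all of them.

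The genes described here are the 2083 that stand in both deposited tables, of 3905 that stand in either. The knockout table listed 2340 genes and the SiHa table listed 3648, and each table holds only genes enriched in IP over input in that line. Genes that were not enriched in both lines have no ratio here. YTHDF3 and its paralogs YTHDF1 and YTHDF2 were absent from the knockout table and listed in the SiHa table, so their input levels could not be compared and the knockout label could not be checked on its own gene. Of 15 epithelial or keratinocyte markers, 3 were listed in the knockout table, among them DSP and KRT17, and 9 in the SiHa table. No marker of leukocytes, endothelium, hepatocytes, erythroid cells or melanocytes was listed in either table. Of the markers of other cell types, MAP2 was listed in both tables and ACTA2 in the knockout table.

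Input RNA is what the cell held before precipitation, so its level is a measure of transcript abundance. In dividing cells a set of genes is transcribed in turn with the cell cycle: histone and DNA replication genes with S phase, and genes of the spindle, kinetochore and chromosome condensation with G2 and mitosis. Their transcripts are abundant in fast-growing cultures and scarce in resting cells. The E2F factors drive much of the S phase set, and many G2 and mitosis genes carry a CCAAT box and a cell cycle genes homology region (CHR) in the promoter, which the DREAM and MYB-MuvB complexes bind.

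The 4 promoter stretches that follow belong to 4 of the genes that were far below SiHa, and are shown because such motifs were counted over the genes at that end. They are examples and not the 4 lowest genes. The promoters of CIT and KIF20B, also far below SiHa, held only CCAAT matches over the same 150 bases. Each gives the 150 bases before the gene's start, 5′ to 3′ on the gene's strand, from RefSeq GRCh38.p14. Capitals mark CCAAT or its complement ATTGG, the CHR letters TTTGAA or TTTAAA or the complement TTCAAA, and the E2F letters TTTGGCGC or TTTCGCGC or their complements. The stretches lie at chr10:128126424-128126573 on the minus strand (MKI67), chr10:92592980-92593129 on the plus strand (KIF11), chr7:100101398-100101547 on the minus strand (MCM7) and chr6:26234988-26235137 on the minus strand (HIST1H1D, now named H1-3).
MKI67: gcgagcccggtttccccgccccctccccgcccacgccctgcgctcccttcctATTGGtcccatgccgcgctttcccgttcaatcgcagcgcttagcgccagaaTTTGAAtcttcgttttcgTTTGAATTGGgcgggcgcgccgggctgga
KIF11: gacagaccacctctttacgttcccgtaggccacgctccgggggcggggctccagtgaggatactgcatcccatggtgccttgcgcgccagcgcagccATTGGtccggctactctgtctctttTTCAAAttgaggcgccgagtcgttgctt
MCM7: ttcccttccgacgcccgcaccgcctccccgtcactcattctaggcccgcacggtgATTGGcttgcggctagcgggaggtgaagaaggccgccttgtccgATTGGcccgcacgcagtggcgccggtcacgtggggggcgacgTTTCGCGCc
HIST1H1D: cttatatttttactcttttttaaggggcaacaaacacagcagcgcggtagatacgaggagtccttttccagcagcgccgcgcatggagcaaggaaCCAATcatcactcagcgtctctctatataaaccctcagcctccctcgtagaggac
MKI67 held 4 matches, and its second CHR and the ATTGG beside it share 1 base. KIF11 held an ATTGG and a CHR on the other strand. MCM7 held a pair of ATTGG and an E2F match close to the start, and HIST1H1D held a CCAAT.

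Levels are given as RPKM, reads scaled to gene length and library size, a form worked out from the deposited values and not stated in the labels. All 2083 genes (100%) gave whole reads in all 4 libraries, to within 1e-07 of a read plus 2e-09 of its value. Read as RPKM, the levels gave library totals of 19.4 M reads for the knockout input and 23.2 M for the SiHa input, and 28.5 M and 26.6 M for the knockout and SiHa IP. The median input level was 8.66 RPKM in the knockout and 12.5 RPKM in SiHa, from a median of 720 reads in the knockout and 1300 in SiHa. As RPKM, each level is scaled to the total of its own library, but whole reads alone do not settle how the libraries were scaled. Most genes (75.3%) had a lower level in the knockout, with a median log2 ratio of -0.52. By choice, each log2 ratio of knockout over SiHa input was reported minus this median, and is called the centred log2 ratio. A real shift shared by most of the listed genes would also be removed by this step. A gene counts as higher or lower from a 2-fold difference after centring. The 95% counting intervals given below are exact binomial intervals on the reads and cover counting error only, since amplified reads are not independent molecules. With 1 library per group there is no replicate error and no test, and the interval of a single gene says nothing of the spread between cultures. In bulk RNA, fewer cells of a kind and less RNA per cell cannot be told apart.

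After centring, 236 genes (11.3% of the 2083) were at least 2-fold lower in the knockout and 184 (8.83%) at least 2-fold higher, 20.2% in either direction. At 4-fold the counts were 64 lower and 18 higher. Without centring 90.6% of the genes past 2-fold were lower in the knockout, against 56.2% with it. The middle of the distribution was narrow, with quartiles at -0.48 and 0.51, and the tails reached -3.85 for TICRR and 4.50 for SPINK5. Counting error was small against the spread: the interval lay wholly past 2-fold for 174 of the 236 lower genes and 117 of the 184 higher genes.

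Genes of cell division made up most of the far low end. Of the 64 genes at least 4-fold lower, 48 (75%) belonged to 7 lists covering mitosis, kinesins, kinetochore, centrosome, cohesin and condensin, replication and histones, which together held 7.30% of all 2083 genes. Those lists had 152 members with a ratio, of which 95 were lower and 1 was higher, and they held 40.3% of the 236 genes at least 2-fold lower. Outside them, 141 of 1931 genes were lower and the median was 0.06. The lists were chosen with earlier results of these data known, so these shares are a description and not a test.

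MKI67, which encodes the proliferation antigen Ki-67 that coats mitotic chromosomes (ENSG00000148773, GRCh38.p14 chromosome 10, 128096659 to 128126423), had an input level of 11.2 RPKM in the knockout and 189 RPKM in SiHa, from 2760 and 55532 reads. Its centred log2 ratio was -3.55 with a 95% counting interval of -3.61 to -3.50, or 11.7-fold lower after centring. TICRR, a regulator of replication origin firing (ENSG00000140534, chromosome 15, 89575469 to 89628023), was lowest of all, at 1.45 RPKM in the knockout and 30.1 RPKM in SiHa. Its centred log2 ratio was -3.85 (counting interval -4.07 to -3.64, on 191 and 4727 reads).

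Of the 29 mitotic cyclin, kinase and spindle genes with a ratio, 26 were lower and none was higher, and all 29 were below 0. Their median centred log2 ratio was -1.93. BUB1, a kinase of the spindle checkpoint, had 2.97 RPKM in the knockout and 34.4 RPKM in SiHa (centred log2 ratio -3.01). TOP2A, the topoisomerase that untangles sister chromatids, had 17.0 RPKM in the knockout and 138 RPKM in SiHa (-2.50). CCNB1, the cyclin that activates CDK1 for entry into mitosis, had 13.0 RPKM in the knockout and 51.4 RPKM in SiHa (-1.46). The cytokinesis genes were lower too: the kinase CIT stood at -3.21, the chromosomal passenger INCENP at -2.72, the spindle midzone protein PRC1 at -2.54 and the furrow scaffold ANLN at -2.30. The transcription factors that act on such genes, MYBL2 and FOXM1, had centred log2 ratios of -2.82 and -1.66. The knockout table listed 30 members of the mitosis list and the SiHa table listed 52. Of the 52, 29 had a ratio, beside 2083 of the 3648 SiHa-listed genes in all, so this loss is not particular to the list.

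Among 13 centromere and kinetochore genes, 9 were lower and none was higher (median -1.98). KNL1, the scaffold that recruits the checkpoint to kinetochores, had 2.20 RPKM in the knockout and 29.4 RPKM in SiHa (-3.21). NDC80 and NUF2, which form the microtubule-binding rod, stood at -1.98 and -2.09, and HJURP, the chaperone of the centromeric histone, at -2.47.

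The kinesins differed by role. Of 20 kinesin motor genes, 8 were lower and 1 was higher. The 9 with a known role in mitosis, grouped after their values were seen, were all below 0, with a median of -2.25 and a range of -2.90 to -0.84. KIF11, the motor that separates spindle poles, had 4.73 RPKM in the knockout and 50.7 RPKM in SiHa (counting interval -3.04 to -2.76). The transport kinesins, also chosen after their values were seen, did not stand with them. KIF1C was at 0.00 with 15.9 RPKM in the knockout and 22.8 RPKM in SiHa, KIF3B was at 0.01 and KIF3A at 0.53. KIF5B, the heavy chain of conventional kinesin, had 32.9 RPKM in the knockout and 14.2 RPKM in SiHa, a centred log2 ratio of 1.73 (1.65 to 1.81).

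**Figure D1:**
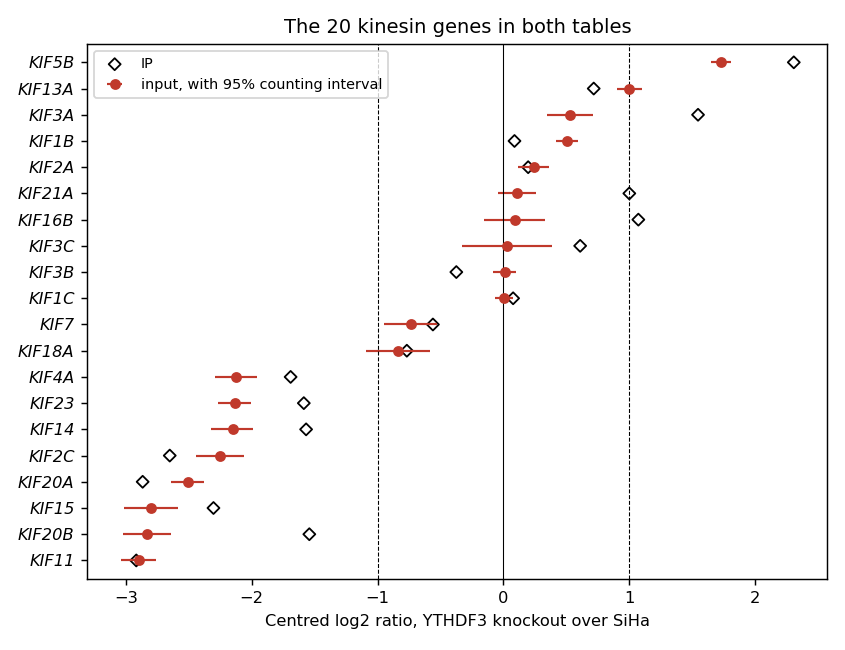
Centred log2 ratio of knockout over SiHa for the 20 kinesin genes listed in both tables. Red points show the input ratio with its 95% counting interval, open diamonds the IP ratio, and dashed lines mark 2-fold; KIF11 lies at -2.90 and KIF5B at 1.73, and 8 genes lie to the left of the lower dashed line.

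Of 21 cohesin and condensin genes, 11 were lower and none was higher, with a median of -1.04. The 6 condensin subunits with a ratio were all lower, from -3.03 for NCAPH to -1.04 for SMC2. NCAPH, the kleisin that closes the condensin I ring, had 1.26 RPKM in the knockout and 14.7 RPKM in SiHa, from 72 and 1007 reads. The cohesin subunits SMC1A and SMC3, of the complex that holds sister chromatids together, were at -1.26 and -1.75. The cohesin genes RAD21, STAG2 and PDS5A, named after their values were seen, lay within 2-fold at -0.72, -0.44 and -0.19.

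DNA replication and nucleotide supply genes had a median of -1.64, with 18 of 25 lower and none higher. The 5 MCM genes with a ratio were all lower, from -2.98 to -1.67, as a group formed after their values were seen. MCM7 and MCM4 are subunits of the replicative helicase. MCM7 had 5.77 RPKM in the knockout and 65.2 RPKM in SiHa, and MCM4 had 19.6 RPKM in the knockout and 175 RPKM in SiHa (-2.64). LIG1, the ligase that joins Okazaki fragments, had 1.65 RPKM in the knockout and 16.9 RPKM in SiHa (-2.84), and POLA1, the primase-bound polymerase, stood at -1.76. PCNA, the sliding clamp, named after its value was seen, stayed just inside 2-fold at -0.98 with 29.5 RPKM in the knockout and 83.8 RPKM in SiHa.

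Histone genes had the lowest median of all lists with 5 or more members, at -2.50, and 10 of 13 were lower. HIST1H1D, a linker histone gene, had 7.12 RPKM in the knockout and 119 RPKM in SiHa (-3.53), from only 46 and 914 reads, with a counting interval of -3.99 to -3.11. H1F0, which encodes the replacement linker histone, had 6.73 RPKM in the knockout and 132 RPKM in SiHa (-3.77). The 3 histone genes inside 2-fold, named after their values were seen, were HIST1H1C at -0.38, HIST2H2BE at -0.42 and the macroH2A gene H2AFY at -0.61. Most replication-dependent histone mRNAs lack a poly(A) tail, and near-identical copies in the histone clusters can share reads, so single histone values are uncertain.

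Other classes leaned low with smaller shifts, and their counts stand beside a share of 11.3% lower over all genes. Of 23 acidic histone chaperone and nucleolar phosphoprotein genes, 7 were lower and none was higher (median -0.87). HMGB2, a chromatin protein of dividing cells, had 5.38 RPKM in the knockout and 39.5 RPKM in SiHa (-2.35), while the nucleolar genes NCL and NPM1, named after their values were seen, were at -0.26 and 0.02. Of 94 chromatin remodeller and histone-modifying enzyme genes, 17 were lower and 1 was higher (median -0.50), led by EZH2, the Polycomb methyltransferase, at -2.15. Splicing factor and RNA-binding protein genes had 11 of 61 lower and none higher (median -0.49). Single genes of cell junctions were also at the low end, but the junction list did not lean low. Of 22 integrin, cadherin and junction genes, 2 were lower and 2 were higher (median 0.08). DSP, the plaque protein of desmosomes, which anchor keratins, had 5.46 RPKM in the knockout and 50.5 RPKM in SiHa (-2.68). PKP4, a plakophilin family gene chosen after its value was seen, was at -2.21. The epithelial marker KRT17, a keratin, was within 2-fold at 0.37 (-0.16 without centring).

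**Figure D2:**
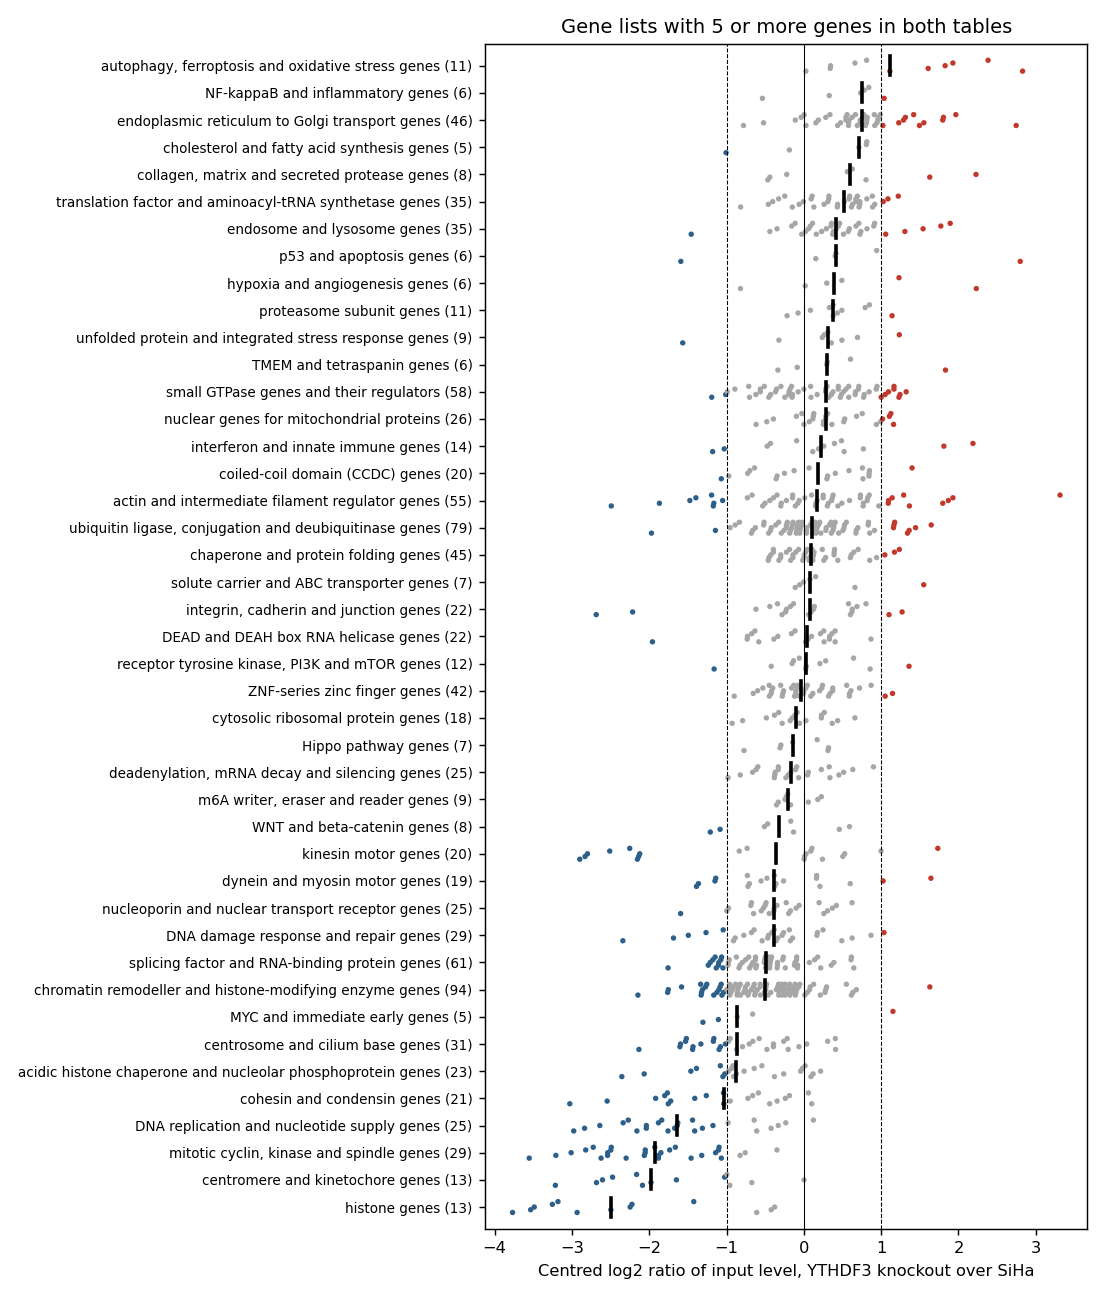
Centred log2 ratio of input level, knockout over SiHa, for the members of each of the 43 gene lists with 5 or more genes in both tables (number of genes in brackets). Each point is 1 gene, blue where at least 2-fold lower and red where at least 2-fold higher, and the black bar is the list's median; histone genes lie lowest at a median of -2.50 and the autophagy list highest at 1.11.

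The promoters of the low end were set against those of the genes within 2-fold, over a window of 300 bases (250 before the start and 50 after it) and on both strands. Of the 64 genes at least 4-fold lower, 52 had a promoter in the table: 73.1% held CCAAT, 63.5% held a CHR (TTTGAA or TTTAAA) and 44.2% held both. Of 1385 promoters of genes within 2-fold, 37.1% held CCAAT, 14.2% a CHR and 5.92% both. Over all 27305 promoters of the table the shares were 35.7%, 24.3% and 9.49%. Over all 236 genes at least 2-fold lower, of which 192 had a promoter, the shares were smaller, at 49.0% for CCAAT, 31.2% for a CHR and 21.9% for both. The E2F letters were in 19.2% of the promoters of the 4-fold lower genes, in 10.4% of those at least 2-fold lower, in 2.60% of those within 2-fold and in 1.18% of all. The shares differed between lists, as a description with no test: 76% of 25 promoters of the mitosis list held a CHR and 4% the E2F letters, while 13.6% of 22 promoters of the replication list held a CHR and 31.8% the E2F letters. Of 19 promoters of the cohesin and condensin list, 36.8% held a CHR and 10.5% the E2F letters. MKI67 and KIF11, shown above, are among the CHR promoters and MCM7 is among those with the E2F letters. A match is only a run of letters and not a measured site. Under 80% of the higher genes (147 of 184), of the lower genes outside the division lists (111 of 141) and of the histone and kinetochore lists (10 of 13 each) had a promoter in the table, so the check is void for these sets and no share is given. The shares over all lower genes therefore do not describe the lower genes outside the division lists.

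The high end held fewer genes past 2-fold and 4-fold, and no list there had as large a share of members past 2-fold as mitosis at the low end. SPINK5, a serine protease inhibitor of stratified epithelium (ENSG00000133710, chromosome 5, 148063980 to 148137382), was highest, with 19.3 RPKM in the knockout and 1.23 RPKM in SiHa, from 684 and 52 reads. Its centred log2 ratio was 4.50 with a counting interval of 4.09 to 4.93, or 22.6-fold higher after centring. MAP1B, a microtubule-associated protein best known from neurons, followed at 3.31, with 12.8 RPKM in the knockout and 1.85 RPKM in SiHa. NUB1, which lowers the level of NEDD8 conjugates, had 67.2 RPKM in the knockout and 13.0 RPKM in SiHa (2.90).

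Several signalling and stress genes were also at the high end. MDM2, the ubiquitin ligase that degrades p53 and is itself a p53 target gene, had 28.0 RPKM in the knockout and 5.78 RPKM in SiHa (2.80, counting interval 2.72 to 2.88). Among the 6 p53 and apoptosis genes with a ratio it was the only one past 2-fold upwards, and the median was 0.41. HIF1A, the oxygen-regulated transcription factor, had 302 RPKM in the knockout and 92.5 RPKM in SiHa (2.23), from 23178 and 8477 reads. EPAS1, its relative HIF-2 alpha, stood at 1.23. Of the 6 hypoxia genes 2 were higher and none was lower, with a median of 0.39. CLU, the secreted chaperone clusterin, had 87.5 RPKM in the knockout and 23.2 RPKM in SiHa (2.44), and TGFB2, a TGF-beta ligand, had 35.5 RPKM in the knockout and 11.1 RPKM in SiHa (2.20). GBP2 and GBP3, interferon-induced GTPases, were at 2.19 and 1.81, while the RNA sensor IFIH1 and the DNA sensor IFI16 were lower, at -1.18 and -1.03. The matrix gene COL12A1 had 387 RPKM in the knockout and 179.9 RPKM in SiHa (1.63), with the most knockout input reads of the 2083 genes (87982).

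**Figure D3:**
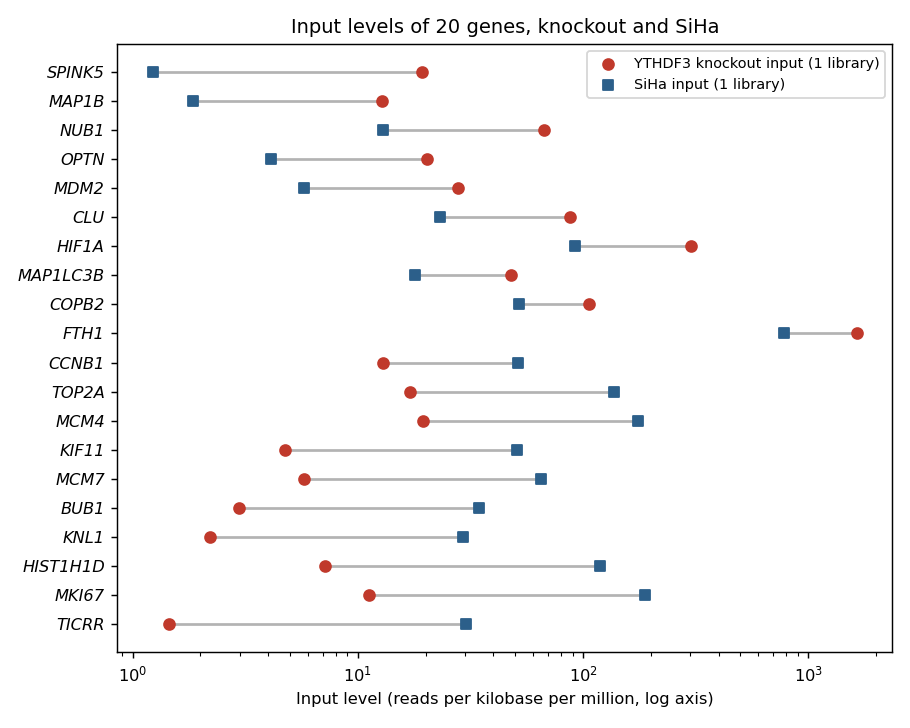
Input levels of 20 of the genes named in the text, in RPKM on a log axis, before centring. Red circles are the knockout input library and blue squares the SiHa input library; MKI67 lies at 11.2 in the knockout and 189 in SiHa, and SPINK5 at 19.3 in the knockout and 1.23 in SiHa.

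Genes of the secretory pathway formed the longest list among those with a median above 0.5. Of 46 endoplasmic reticulum to Golgi transport genes, 42 were above 0, 11 were higher and none was lower, with a median of 0.75 (0.22 without centring). SEC24D, a cargo adaptor of COPII vesicles, had 10.4 RPKM in the knockout and 2.23 RPKM in SiHa (2.75). COPB2, a coat subunit of COPI vesicles, had 106 RPKM in the knockout and 51.9 RPKM in SiHa (1.55), and its partner COPB1 was at 1.29. The Golgi tethers GOLGA5 and USO1 stood at 1.97 and 1.80, the COPII coat gene SEC31A at 1.31, and SSR1, of the translocon-associated complex, at 1.42. SEC14L1, which the list takes by the start of its symbol, is a lipid-binding protein and stood at 1.81.

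Of 35 endosome and lysosome genes, 5 were higher and 1 was lower, with a median of 0.42 that turned to -0.10 without centring. The higher ones included 3 subunits of the V-ATPase, the proton pump of lysosomes. ATP6V1G1 had 53.5 RPKM in the knockout and 20.7 RPKM in SiHa (1.89), ATP6V1D was at 1.77 and ATP6V1E1 at 1.54. SNX5, a retromer-associated sorting nexin, was the lower one at -1.46.

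The autophagy, ferroptosis and oxidative stress list was small but had the highest median of all lists with 5 or more members. All 11 members with a ratio were above 0, 6 were higher and the median was 1.11 (0.59 without centring). Among the 6 were 3 autophagy receptors that link cargo to the autophagosome: OPTN had 20.4 RPKM in the knockout and 4.12 RPKM in SiHa (2.83), TAX1BP1 had 53.2 RPKM in the knockout and 21.6 RPKM in SiHa (1.83), and CALCOCO2 was at 1.11. MAP1LC3B, the membrane mark that such receptors bind, had 47.7 RPKM in the knockout and 18.0 RPKM in SiHa (1.93). ME1, the cytosolic malic enzyme that makes NADPH, stood at 2.38. FTH1, the ferritin heavy chain, had the highest input level of the 2083 genes in both lines, 1651 RPKM in the knockout and 779 RPKM in SiHa (1.61). Its pseudogenes FTH1P2, FTH1P7 and FTH1P8, named after their values were seen, were at 1.64, 2.13 and 1.19; they are near-identical copies that can take reads of FTH1, so these values are uncertain. The knockout table listed 12 members of this list and the SiHa table listed 22, beside 2340 and 3648 genes in all. Over the secretory, endolysosomal and autophagy lists together, 22 of 92 genes (23.9%) were higher and 1 was lower, and these were 12.0% of all higher genes against 4.42% of all 2083.

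Some lists had no member past 2-fold. None of 18 cytosolic ribosomal protein genes passed 2-fold (median -0.10), nor did any of 9 m6A writer, eraser and reader genes (-0.21) or of 25 genes of deadenylation, decay and silencing (-0.17). The m6A genes included YTHDC1, a nuclear m6A reader, with 5.13 RPKM in the knockout and 8.72 RPKM in SiHa (-0.24, named after its value was seen), and WTAP, a subunit of the methyltransferase complex, at 0.18. Translation factor and aminoacyl-tRNA synthetase genes had 27 of 35 above 0 and a median of 0.52 that fell to 0.00 without centring, and 3 of 35 were higher, a share near the 8.83% of all genes. ZNF-series zinc finger genes had 2 of 42 higher and none lower (-0.03). Short lists lay further out: the median was 0.76 for 6 NF-kappaB and inflammatory genes (1 higher, none lower), 0.71 for 5 cholesterol and fatty acid synthesis genes (none higher, 1 lower), 0.59 for 8 collagen, matrix and secreted protease genes (2 higher, none lower) and -0.86 for 5 MYC and immediate early genes (1 higher, 2 lower).

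The same genes were then read in the IP libraries, which did not enter the input ratio. The IP ratio was centred in the same way on its own median of -0.12. At 2-fold it was lower in the knockout for 272 genes (13.1%) and higher for 288 (13.8%). Of the 236 genes lower in input, 144 (61.0%) were also at least 2-fold lower in IP and none was at least 2-fold higher. Of the 184 genes higher in input, 102 (55.4%) were also higher in IP and none was lower. Among the 1663 genes within 2-fold in input, the IP shares were 7.70% lower and 11.2% higher. Over the 2083 genes Pearson's r between the ratios was 0.75 and Spearman's rho 0.69, as a description across genes of the same 4 libraries, which share gene lengths and joint listing. The IP columns were matched to their cell lines by name, and to IP because their names lack the word input. Their lanes differ from the sample titles or are missing there, so the samples themselves are not settled. This doubt applies to every IP value.

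**Figure D4:**
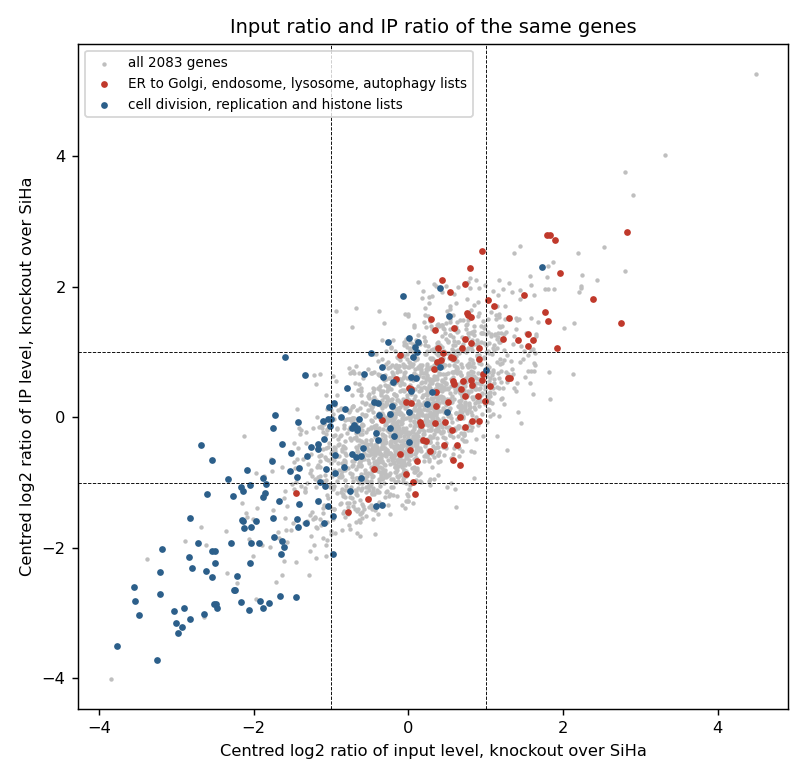
Centred log2 ratio of knockout over SiHa in input (horizontal axis) and in IP (vertical axis) for the 2083 genes in both tables, with dashed lines at 2-fold. Red points are the secretory, endolysosomal and autophagy lists and blue points the cell division, replication and histone lists; of the 236 genes lower in input, 225 lie below 0 in IP.

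The division genes differed in how far the IP level went with the input level. For the mitosis list the median IP ratio was -1.93, as in input, and for histone genes it was -2.43. For kinetochore genes it was -0.81 against -1.98 in input, for cohesin and condensin genes -0.29 against -1.04, and for centrosome genes -0.08 against -0.87. CENPE, the kinetochore kinesin, was at -2.68 in input and -0.42 in IP, and the condensin ATPase SMC4 at -2.54 in input and -0.65 in IP. In total 11 genes were at least 2-fold lower in input and above 0 in IP. Among them were the centriole appendage gene SCLT1 (-1.59 in input, 0.92 in IP), SYCP2, known from the meiotic synaptonemal complex (-1.72 and 0.03), and the splicing factor SFPQ (-1.18 and 0.00). At the other end 4 genes were higher in input and below 0 in IP, named after their values were seen: FAT1, an atypical cadherin (1.27 in input, -0.51 in IP), the proteasome chaperone PSMD10, the glycosyltransferase B3GNT2 and the adducin ADD1.

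Genes were listed by the authors' enrichment of IP over input, so the input level itself bears on the listing. That enrichment is not the plain ratio of the 2 levels. The pseudogene RPL13AP5, named after its values were seen, had 125 RPKM in SiHa IP and 116 RPKM in SiHa input. Its deposited log2 enrichment in SiHa was 1.12. How the enrichment was scaled is not known, so its values may not share a scale between the lines. In the authors' deposited tables the median log2 enrichment of the lower genes was 2.90 in the knockout and 2.40 in SiHa. In the authors' deposited tables the higher genes had a median of 2.16 in the knockout and 2.27 in SiHa, and the genes within 2-fold had 2.46 in the knockout and 2.31 in SiHa. The part of the listing in the input ratios was not tested. Across genes the input ratio had a Spearman correlation of -0.16 with the deposited enrichment in the knockout, of -0.01 with that in SiHa and of -0.13 with counted gene length.

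Location was examined last, and a stretch of chromosome 10 was singled out after its values were seen. Of 27 genes with a ratio in the first 40 Mb of chromosome 10, 23 were above 0 and 15 (55.6%) were higher, against 8.83% of all genes, with a median of 1.07. In the rest of chromosome 10, 18 of 64 genes were above 0, 1 was higher and the median was -0.44. OPTN, KIF5B and FAM107B lie in the first stretch, and so do the supervillin gene SVIL (1.80), the neuropilin gene NRP1 (1.59) and the cullin gene CUL2 (1.45). The only 2 lower genes there were MCM10, a replication initiation factor with 1.07 RPKM in the knockout and 6.30 RPKM in SiHa (-2.04), and MASTL, a mitotic kinase (-1.14), both of the division lists. The IP ratio was above 0 for 23 of the 27 genes with a median of 0.89, and had a median of -0.25 in the rest of the chromosome. It is not an independent check of the stretch, since input and IP ratios went together over all genes (Pearson's r 0.75). Without centring the median of the stretch was 0.54 in input. Without these 27 genes the count of higher genes was 169, so the stretch holds 15 of the 184. Other locations also departed from the shares over all genes, 11.3% lower and 8.83% higher. On chromosome 15, 18 of 74 genes were lower and 2 higher, and on chromosome 19, 22 of 112 were lower and 1 higher. On chromosome 4, 15 of 89 were higher and 9 lower. Copy number in either line was not measured, and its part was not tested.

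**Figure D5:**
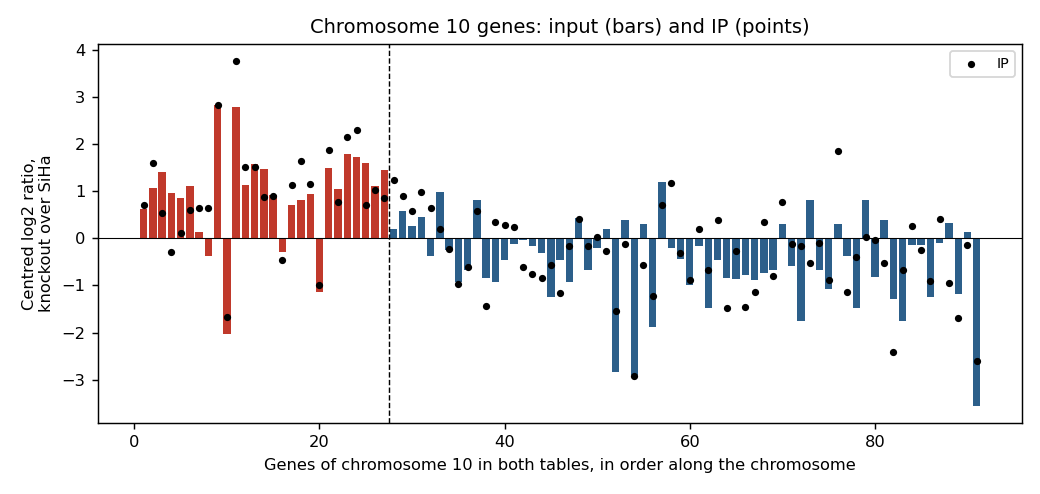
Centred log2 ratio of knockout over SiHa for the 91 genes of chromosome 10 in both tables, in order along the chromosome. Bars are the input ratio, red for the 27 genes of the first 40 Mb and blue for the other 64, points are the IP ratio, and the dashed line parts the stretches; the median is 1.07 left of it and -0.44 right of it.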

How the data were processed

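Genes, levels and biotypes came from the authors' deposited tables, 1 per cell line. FastQC 0.11.7 and the builds GRCh38 and hg38 come from the submitters' processing notes. The aligner, the counter, strand use and the test were not given in the sources used here. Deposited levels had the form of RPKM. Ratios between columns were whole-number ratios times 1 constant, and 3 of 4 short RNA genes fixed the scale through their RefSeq span. Recovered reads are the smallest whole solution and could lack a shared factor. Whether reads or fragments were counted is unknown, so counting intervals are approximate. Per the file headers, the authors also deposited a log2 enrichment of IP over input with p-value and FDR, used only as filters and descriptions.

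Tables were joined by Ensembl identifier, and log2 ratios (pseudocount 0) were centred on their median. The 47 gene lists were matched by symbol, and 2066 symbols matched RefSeq GRCh38.p14. Members and lists were chosen with earlier results of these data known. Named genes are the 15 lowest and 15 highest protein-coding ratios at or above the median level (13.5 RPKM in the higher input), up to 5 leading members per list and the members past 2-fold of lists rich in them, 302 in all. Exceptions are marked in the text. Read recovery and calls were tested on simulated data. Python 3.11.15, pandas 2.3.3 and scipy 1.17.1 were used. Centring, pseudocount, level, FDR, enrichment and biotype filters were varied.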

Additional observations from a re-analysis of the deposited data

How the results depend on the processing

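The main counts were 184 genes higher and 236 lower in the knockout. Without centring they were 55 higher and 532 lower. With a level of at least 5 RPKM in both inputs they were 95 and 139 among 1443 genes, and at a deposited log2 enrichment of at least 2 in both lines they were 99 and 142 among 1207 genes, where fewer genes were counted. At 4-fold they were 18 and 64, and at 1.5-fold 464 and 467. The other 6 choices of centring, pseudocount and filter, and 2 tried after seeing the data (outside the first 40 Mb of chromosome 10, and outside the 7 division lists), kept both counts within 1.5 times. The median of the autophagy list fell to 0.59 without centring and to 0.996 with a pseudocount of 1. The median of the cohesin and condensin list (-1.04) moved inside 2-fold with a pseudocount of 1 (-0.96), a level of at least 5 RPKM in both inputs (-0.98) and an enrichment of at least 2 (-0.99). The other 6 medians that crossed 2-fold moved past it: 5 of them without centring, and that of the hypoxia list at an FDR of at most 0.05 (1.21). Of 387 list medians under the 9 alternatives to centring, pseudocount and filters, 376 stayed on their side of 2-fold, and no median past 2-fold changed sign. Of 2455 values of the 302 named genes, 2341 stayed on their side, and none past 2-fold changed sign.

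No paired analysis was possible because each group has 1 library. For the same reason no difference has a replicate check. Depth limits single genes with few reads, such as HIST1H1D with 46 in the knockout input.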
